A study of Mus musculus with 4 samples.

Results

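Tetraspanins are small membrane proteins that cross the lipid bilayer several times and gather integrins, immunoglobulin-superfamily proteins and proteases into shared membrane domains. CD9, CD63 and CD81 are the members most used to mark exosomes, the vesicles released when multivesicular endosomes fuse with the cell surface. The family was taken from the deposited gene table as every protein-coding gene named Tspan followed by a number, together with Cd9, Cd37, Cd53, Cd63, Cd81, Cd82, Cd151, Prph2, Rom1, Upk1a and Upk1b. This gave 31 genes of the 55487 in the table. Of these, 29 passed the filter on low counts and were tested, and Tspan10 and Prph2 did not pass.

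The RNA came from the calvaria, or skull vault, of mouse embryos at E14.5, mid-gestation, when the vault begins to ossify. Poly(A) RNA was sequenced from the frontal bone in 2 libraries and from the parietal and interparietal bones, combined, in 2 libraries. All libraries are of the same age, and the labels name no treatment, allele, strain or number of embryos. Whether libraries of 1 group are separate animals is not stated, so p-values reflect the spread among these libraries alone, which may be technical. The series belongs to a study of vesicles that carry citrate in bone mineralization, and the comparison asks how the frontal bone differs from the parietal and interparietal bones.

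Library totals lay between 24069177 and 35555013 counts. Levels are given in CPM, counts scaled to a common library size, with TMM (trimmed mean of M-values) factors between libraries. A count of 3 in a library corresponded to 0.104 and 0.0852 CPM in frontal libraries 1 and 2, against 0.123 and 0.111 CPM in parietal-interparietal libraries 1 and 2. The libraries held several tissues beside bone. The osteoblast genes Runx2, Sp7 and Ibsp were detected in every library, and Bglap and Dmp1, markers of late osteoblasts and osteocytes, were under 1 CPM in every library. Of 8 osteoblast markers, 1 was higher (Ibsp) and 1 lower (Col1a1) in frontal libraries, with summed levels, mostly Col1a1, of 1127 and 1118 CPM in frontal and 1579 and 1587 CPM in parietal-interparietal libraries. Of 12 listed cortical neuron and progenitor markers, 9 were higher and 1 lower (Stmn2) in frontal libraries. Their summed level was 927 and 929 CPM in frontal and 607 and 615 CPM in parietal-interparietal libraries. Most of that sum came from Tubb3, Dcx, Stmn2 and Map2 in both groups. Eomes was at 53.3 and 53.6 CPM in frontal and 0.246 and 0.0737 CPM in parietal-interparietal libraries. Tbr1 was at 26.7 and 28.3 CPM in frontal and 0.164 and 0.0737 CPM in parietal-interparietal libraries. Of 10 skeletal muscle markers, 9 were lower and 0 higher, with summed levels of 1642 and 1563 CPM in frontal and 2180 and 2157 CPM in parietal-interparietal libraries. Their part in the differences below was not tested. In bulk RNA, fewer cells of a type and less RNA per cell cannot be told apart.

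Across the family, 2 members were higher in frontal libraries (Tspan3 and Cd82), 1 was lower (Upk1b) and 26 were not called. Called means an adjusted p under 0.05 in edgeR's quasi-likelihood test, with Benjamini-Hochberg adjustment across the 20947 genes tested. Of all tested genes 12.7% were called, 6.25% higher and 6.44% lower, so the share of members called was near that of genes in general. Values in log2 units below are log2 fold changes, frontal over parietal-interparietal, ± SE. The members' log2 fold changes lay between −1.04 and 1.00, with a median of 0.06, against a median of 0.0060 over all tested genes. At an unadjusted p under 0.05 there were 8 members, against 27.1% of all tested genes. Both frontal libraries were above both parietal-interparietal libraries for 11 tested members and below for 9, and the groups overlapped for the other 9. Over all tested genes, 57.3% had groups that did not overlap.

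The summed counts of the family were 0.138% (0.137 to 0.140, Wilson interval at 95%) of the counts of frontal library 1 and 0.145% (0.144 to 0.146) of those of frontal library 2. In parietal-interparietal libraries 1 and 2 they were 0.146% (0.144 to 0.147) and 0.146% (0.144 to 0.147). These intervals cover counting error only. Cd9, Cd63 and Cd81 together took 45.1% (44.6 to 45.6) and 44.4% (44.0 to 44.8) of the family's counts in the frontal libraries. In the parietal-interparietal libraries their share was 46.5% (46.0 to 47.1) and 47.4% (46.9 to 47.9). The share was lower in both frontal libraries than in both others.

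**Figure D1:**
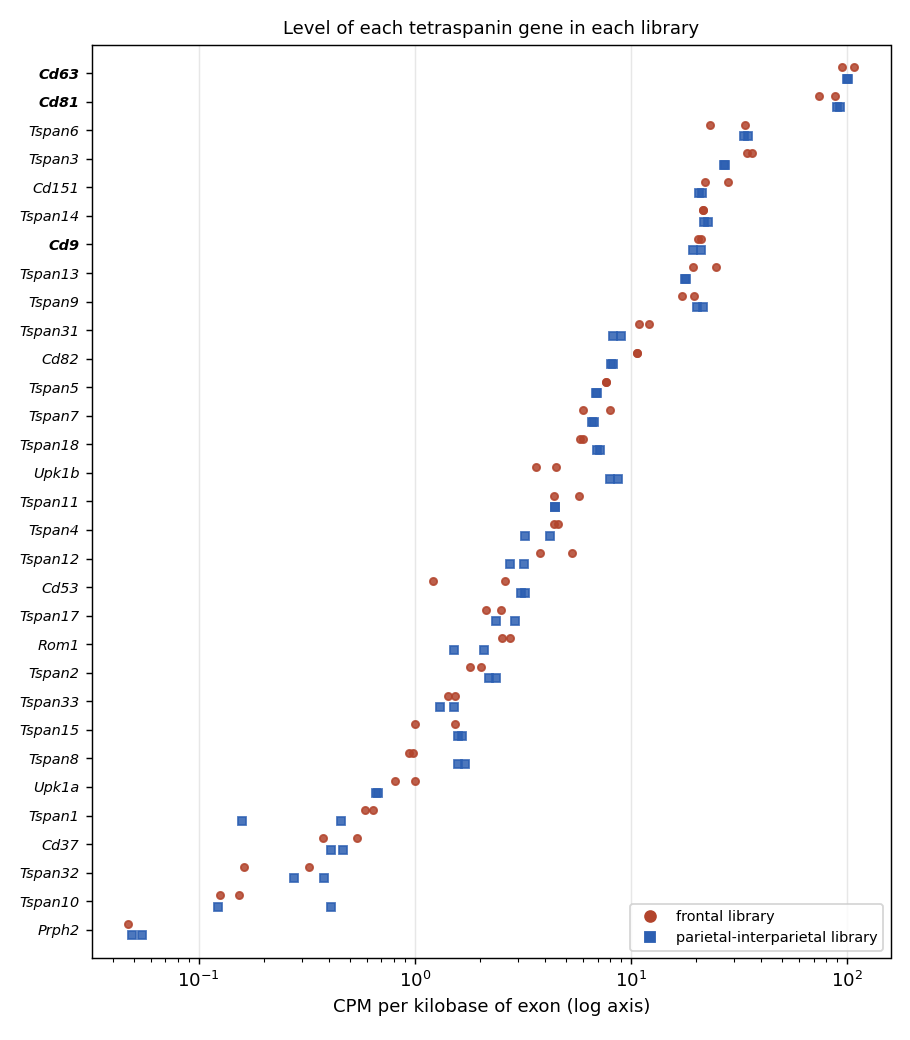
CPM per kilobase of exon (log axis) of the 31 tetraspanin genes in each of the 4 libraries, ordered by mean level; circles are frontal and squares parietal-interparietal libraries, and the exosome tetraspanins are in bold. Cd63 and Cd81 lead in all 4 libraries, Upk1b is set apart toward the parietal-interparietal side, and the frontal value of 0 for Prph2 cannot be drawn on a log axis.

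Levels between genes were compared as CPM per kilobase of annotated exon. Cd63, whose protein cycles between late endosomes, lysosomes and the cell surface, had the highest mean over the 4 libraries at 101 CPM per kilobase. Cd81 followed at 86.1, Tspan6 at 31.2, Tspan3 at 31.1 and Cd151 at 23.0 CPM per kilobase. The means of Tspan6 and Tspan3 were close, and the order of these genes differed between the groups. Tspan6 had 23.3 and 33.8 CPM per kilobase in frontal libraries 1 and 2, below Tspan3 at 34.3 and 36.1. In parietal-interparietal libraries 1 and 2 Tspan6 had 33.1 and 34.7 CPM per kilobase, above Tspan3 at 27.2 and 27.0. Cd9 was only the seventh member in this order, at 20.4 CPM per kilobase. At the low end stood the photoreceptor gene Prph2 at 0.0377 and Tspan10 at 0.203 CPM per kilobase. On the CPM scale, 3 members were at 100 CPM or more in every library, 11 lay between 10 and 100 CPM in every library, and 12 were under 10 CPM in every library.

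The exosome tetraspanins did not pass the test in this comparison. Cd63 (ENSMUSG00000025351, GRCm38 chromosome 10, 128900989 to 128912822) was at 347 and 396 CPM in frontal libraries 1 and 2 and at 370 and 367 CPM in parietal-interparietal libraries 1 and 2. The frontal libraries lay on both sides of the parietal-interparietal pair, which was nearly level. Its log2 fold change was 0.01 ± 0.08 (SE; 95% interval −0.17 to 0.19, edgeR adjusted p = 0.956). The sign of this small difference turned with the scaling and with the library left out: it was −0.040 with no scaling beyond the total count. Without frontal library 1 Cd63 was called higher at 0.10, and without frontal library 2 it was called lower at −0.10. Each of these fits holds 1 frontal library and takes its spread from the parietal-interparietal pair alone. It cannot measure how far frontal libraries vary.

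Cd81 (ENSMUSG00000037706, chromosome 7, 143052739 to 143067934), which partners EWI proteins on many cells, was at 252 and 213 CPM in frontal libraries 1 and 2 and at 259 and 267 CPM in parietal-interparietal libraries 1 and 2. Both frontal values were below both others, and frontal library 2 was the lowest. The log2 fold change was −0.18 ± 0.09 (95% interval −0.38 to 0.02, edgeR adjusted p = 0.244). Without frontal library 1 it was called lower at −0.30, where the spread came from the parietal-interparietal pair alone. It was not called in the other alternatives.

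Cd9 (ENSMUSG00000030342, chromosome 6, 125460266 to 125494791), known for its role in sperm-egg fusion and in cell adhesion, was at 42.9 and 41.7 CPM in frontal and at 39.6 and 43.0 CPM in parietal-interparietal libraries. The groups overlapped, with a log2 fold change of 0.03 ± 0.10 (95% interval −0.19 to 0.25, edgeR adjusted p = 0.873). It was −0.019 without TMM scaling and −0.026 without parietal-interparietal library 1. The ratio of Cd63 to Cd81, both per kilobase, was 1.08 and 1.45 in frontal libraries 1 and 2, against 1.12 and 1.07 in parietal-interparietal libraries 1 and 2. Frontal library 2 therefore stood apart in the balance of these 2 markers.

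The promoters of the exosome tetraspanins and of the 2 members called higher are shown as the sequence at the starts of the genes that the counts describe, from 250 bases before to 50 after the transcription start that RefSeq gives on GRCm38.p6. The table held a promoter for 29 of the 31 members; Upk1b and Tspan18 were not matched. Capitals mark 3 short motifs searched on both strands, the GC box GGGCGG, the CCAAT box CCAAT and the TATA box TATAAA, none of which contains another.
Cd63: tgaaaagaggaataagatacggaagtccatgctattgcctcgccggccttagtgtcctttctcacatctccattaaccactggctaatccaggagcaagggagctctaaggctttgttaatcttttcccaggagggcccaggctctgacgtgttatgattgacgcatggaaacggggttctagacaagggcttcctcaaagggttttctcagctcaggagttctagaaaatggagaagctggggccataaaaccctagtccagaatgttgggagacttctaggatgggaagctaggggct
Cd81: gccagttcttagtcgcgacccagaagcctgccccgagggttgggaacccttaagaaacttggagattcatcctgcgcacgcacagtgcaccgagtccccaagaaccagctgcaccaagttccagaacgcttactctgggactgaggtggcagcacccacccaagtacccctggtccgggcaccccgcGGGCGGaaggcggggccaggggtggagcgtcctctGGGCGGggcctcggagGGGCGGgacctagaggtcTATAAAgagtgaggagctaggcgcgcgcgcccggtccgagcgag
Cd9: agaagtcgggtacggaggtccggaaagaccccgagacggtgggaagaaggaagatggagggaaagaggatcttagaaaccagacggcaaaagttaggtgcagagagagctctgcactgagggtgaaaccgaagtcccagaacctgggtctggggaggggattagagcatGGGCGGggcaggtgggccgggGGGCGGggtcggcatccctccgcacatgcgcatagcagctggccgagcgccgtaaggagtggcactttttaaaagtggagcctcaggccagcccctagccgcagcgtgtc
Tspan3: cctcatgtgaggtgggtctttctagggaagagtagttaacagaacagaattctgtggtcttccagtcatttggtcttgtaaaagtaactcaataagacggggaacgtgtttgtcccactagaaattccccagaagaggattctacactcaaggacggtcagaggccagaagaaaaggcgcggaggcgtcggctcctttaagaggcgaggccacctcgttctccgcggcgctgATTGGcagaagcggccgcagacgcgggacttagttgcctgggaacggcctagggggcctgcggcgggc
Cd82: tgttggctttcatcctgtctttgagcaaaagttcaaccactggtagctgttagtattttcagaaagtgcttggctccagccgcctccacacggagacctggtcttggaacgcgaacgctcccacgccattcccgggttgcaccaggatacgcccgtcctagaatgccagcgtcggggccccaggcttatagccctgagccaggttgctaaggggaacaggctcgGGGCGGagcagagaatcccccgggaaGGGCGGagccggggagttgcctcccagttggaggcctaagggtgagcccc
The windows lie at chr10:128909095-128909394 (plus strand) for Cd63, chr7:143052500-143052799 (plus) for Cd81, chr6:125494711-125495010 (minus) for Cd9, chr9:56161021-56161320 (minus) for Tspan3 and chr2:93462901-93463200 (minus) for Cd82. Those of Cd63 and Tspan3 lie inside the gene as GENCODE draws it, which begins further upstream. The Cd81 window held 3 GC boxes before the start and 1 TATA box that began at base 7 after it. Those of Cd9 and Cd82 held 2 GC boxes each, of which 1 in Cd82 began at the start itself. The window of Tspan3 held 1 CCAAT box and that of Cd63 held none of the 3 motifs. With 1 promoter per member, 15 of 29 held a GC box, 8 a CCAAT box and 2 a TATA box, which is 51.7%, 27.6% and 6.90%. Of the 32817 RefSeq promoters of the same length, 35.6%, 37.4% and 13.6% held them. That set keeps every distinct start of a gene, while members had 1 promoter each, so the sets were not built alike. Median GC content was 59.3% over the members and 52.7% over all promoters. These matches are letters in a window and were not compared with the fold changes.

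**Figure D2:**
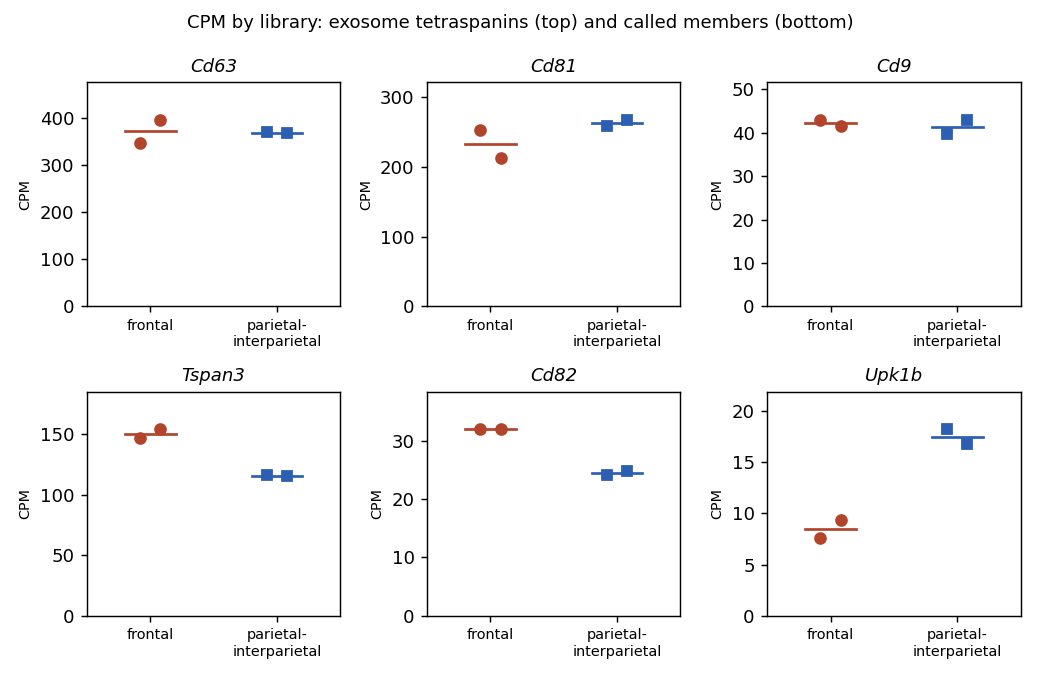
CPM in each library of Cd63, Cd81 and Cd9 (top) and of Tspan3, Cd82 and Upk1b (bottom), frontal left of parietal-interparietal; points are libraries, bars are means of 2 libraries, and each axis starts at 0. The groups overlap for Cd63 and Cd9 and do not for the other panels.

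Of the 5 further members that are found on vesicles, 1 was called higher, Cd82, against 6.25% of all tested genes. Cd82 (ENSMUSG00000027215, chromosome 2, 93419111 to 93463140), a suppressor of tumour metastasis that slows cell movement, was at 32.0 and 32.0 CPM in frontal and at 24.2 and 24.8 CPM in parietal-interparietal libraries. Both pairs were tight and did not overlap. The level was 1.31-fold higher (log2 fold change 0.39 ± 0.11, edgeR adjusted p = 0.0401). The call was lost with no scaling beyond the total count (edgeR adjusted p = 0.0702), in DESeq2 (adjusted p = 0.0596), with parietal-interparietal library 1 or 2 left out (edgeR adjusted p = 0.398 and 0.336) and with these summed as 1 sample (edgeR adjusted p = 0.399); the lowest adjusted p of an alternative was 0.00337.

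Cd151 (ENSMUSG00000025510, chromosome 7, 141467392 to 141471473), the partner of laminin-binding integrins in hemidesmosomes and basement membranes, was at 77.3 and 59.9 CPM in frontal and at 58.6 and 56.4 CPM in parietal-interparietal libraries. Frontal library 1 was high and frontal library 2 was close to the other group. The log2 fold change was 0.25 ± 0.12 (edgeR adjusted p = 0.208), and without frontal library 2 it was called at 0.42. Tspan8, a member of epithelia and of gut and tumour cells, was at 1.60 and 1.68 CPM in frontal and at 2.91 and 2.69 CPM in parietal-interparietal libraries (−0.77 ± 0.34 log2 units, adjusted p = 0.176 in edgeR). Its groups did not overlap, but these CPM values rest on 46 to 73 counts per library.

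The leukocyte members were low in all libraries. Cd53, a marker of white blood cells, was at 2.12 and 4.54 CPM in frontal and at 5.40 and 5.64 CPM in parietal-interparietal libraries. Frontal library 1 was less than frontal library 2 by 1.10 on the log2 scale, the widest gap within the frontal pair of any tested member. The log2 fold change was −0.72 ± 0.33 (edgeR adjusted p = 0.198). Without frontal library 2 it was called at −1.39, where the spread came from the parietal-interparietal pair alone. Cd53 was not called in the other alternatives. Cd37, which is most abundant on B cells, was at 1.32 and 1.90 CPM in frontal and at 1.64 and 1.44 CPM in parietal-interparietal libraries. Tspan32, a member of blood cells, was at 1.01 and 2.02 CPM in frontal and at 1.72 and 2.36 CPM in parietal-interparietal libraries. The log2 fold changes of Cd37 and Tspan32 were 0.07 ± 0.42 and −0.42 ± 0.44, and neither was called (edgeR adjusted p = 0.935 and 0.597). Of 12 leukocyte and macrophage markers, 3 were lower and 0 higher, with summed levels of 283 and 274 CPM in frontal and 345 and 343 CPM in parietal-interparietal libraries. The sum, to which the macrophage genes C1qb and Csf1r gave the most, was alike in the 2 frontal libraries, where Cd53 was not. Ptprc, the marker of all leukocytes, was lower in frontal library 1, as Cd53 was, at 2.96 and 4.94 CPM in frontal and 6.22 and 5.12 CPM in parietal-interparietal libraries. Cd68, Aif1, Laptm5, Cx3cr1 and Adgre1 were also lower in frontal library 1 than in frontal library 2. Csf1r, Fcer1g, Tyrobp, C1qa, C1qb and C1qc went the other way, with C1qa at 17.8 and 11.4 CPM in frontal libraries 1 and 2. None of the 12 markers was at 0 in all libraries, and the part of these cells in the values of the leukocyte members was not tested.

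**Figure D3:**
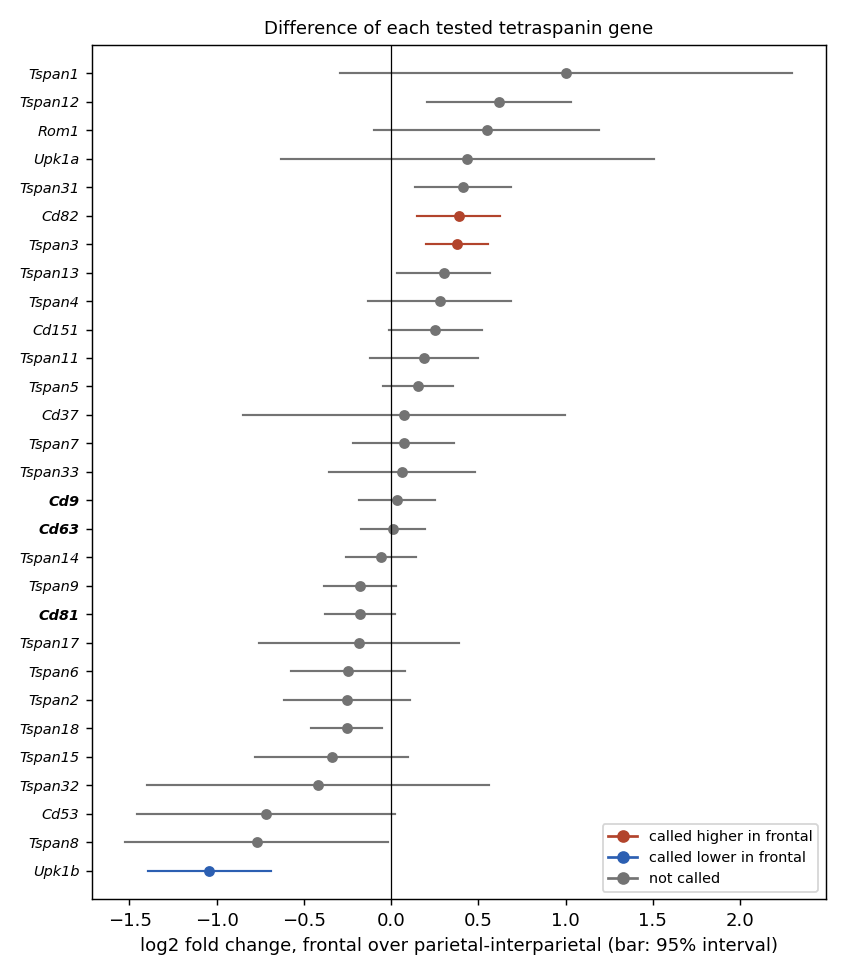
Log2 fold change, frontal over parietal-interparietal, of the 29 tested tetraspanin genes with 95% intervals from the edgeR fit. Upk1b (−1.04) is the lowest and is called lower, Tspan3 (0.38) and Cd82 (0.39) are called higher, and the exosome tetraspanins in bold lie near 0.

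Tspan3 and Upk1b were the other called members. Tspan3 (ENSMUSG00000032324, chromosome 9, 56131725 to 56165477), which binds claudin-11 in myelinating cells and is broadly expressed, was at 147 and 154 CPM in frontal and at 116 and 115 CPM in parietal-interparietal libraries. Both frontal libraries were above both others. The level was 1.30-fold higher (log2 fold change 0.38 ± 0.08, edgeR adjusted p = 0.0124). Its log2 fold change stayed between 0.33 and 0.42 with each library left out. Its call was lost with parietal-interparietal library 1 or 2 left out and with that pair summed.

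Upk1b (ENSMUSG00000049436, chromosome 16, 38773184 to 38800328), a uroplakin of the bladder lining, was at 7.55 and 9.37 CPM in frontal and at 18.2 and 16.7 CPM in parietal-interparietal libraries. The frontal libraries were far below the others, with no overlap. Upk1b was 2.06-fold lower in frontal libraries (−1.04 ± 0.16 log2 units, 95% interval −1.39 to −0.69, adjusted p = 0.00238 in edgeR). It was called in each of the 10 alternatives that were run, with a log2 fold change between −1.22 and −0.90 with each library left out. Upk2, Upk3a and Upk3b, which also encode parts of the urothelial plaque, were at low levels, from 2 to 32 counts per library. Upk2 was at 0.348 and 0.454 CPM in frontal and at 0.327 and 0.368 CPM in parietal-interparietal libraries, and Upk3b, which did not pass the filter, was at 0.0695 and 0.170 CPM in frontal and at 0.246 and 0.147 CPM in parietal-interparietal libraries. Upk3a, the usual partner of UPK1B in the bladder, was at 0.417 and 0.824 CPM in frontal and at 1.31 and 0.884 CPM in parietal-interparietal libraries; its groups did not overlap, in the direction of Upk1b, and it was not called (−0.80 ± 0.61 log2 units, adjusted p = 0.441 in edgeR). The urothelium list of Upk2, Upk3a and Krt20 summed to 0.904 and 1.53 CPM in frontal and 2.05 and 1.62 CPM in parietal-interparietal libraries. Upk1a, the paralog that pairs with UPK2, was at 1.15 and 1.42 CPM in frontal and at 0.941 and 0.958 CPM in parietal-interparietal libraries (0.44 ± 0.48 log2 units, adjusted p = 0.619 in edgeR).

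Markers of 2 other tissues were set beside Upk1b. Of 10 meninges markers, 5 were lower and 1 higher, with summed levels of 1433 and 1405 CPM in frontal and 1661 and 1638 CPM in parietal-interparietal libraries. Of 10 epidermis and epithelium markers, 1 was lower and 2 were higher, with summed levels of 856 and 806 CPM in frontal and 895 and 878 CPM in parietal-interparietal libraries. None of these markers was at 0 in all libraries. Their part in the Upk1b difference was not tested.

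Tspan12 and Tspan31 missed the threshold by a small margin, each with an edgeR adjusted p = 0.0561. Tspan12 (ENSMUSG00000029669, chromosome 6, 21771395 to 21852515), a co-receptor for norrin signalling through FZD4 in retinal vessels, was at 12.5 and 17.6 CPM in frontal and at 9.08 and 10.6 CPM in parietal-interparietal libraries (log2 fold change 0.62 ± 0.19). Its groups did not overlap, and the frontal libraries differed more from each other than the others did. It was called without frontal library 1, with no filter on low counts and with the replicate number as a block in the model. Tspan31 (ENSMUSG00000006736, chromosome 10, 127067280 to 127070264), co-amplified with its neighbour CDK4 in human sarcomas, was at 26.6 and 23.7 CPM in frontal and at 19.7 and 18.2 CPM in parietal-interparietal libraries (log2 fold change 0.41 ± 0.12). It was called without either frontal library, with no filter and with the replicate block. Tspan31 shares 641 exon bases with Cdk4 on the opposite strand, which had between 28552 and 39498 counts per library, against between 481 and 836 for Tspan31. The strand setting of the counting is not given in the sources used here, so reads of the 2 genes may not be told apart.

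Tspan5, Tspan10, Tspan14, Tspan15, Tspan17 and Tspan33 form the TspanC8 group, which carries the protease ADAM10 out of the endoplasmic reticulum and steers which substrates it cuts. Of the 5 that were tested, 0 were called, against 12.7% of all tested genes, so this small count does not set the group apart. Tspan14 was the most abundant of them per kilobase, at 56.8 and 56.7 CPM in frontal and at 60.4 and 57.8 CPM in parietal-interparietal libraries (−0.06 ± 0.09 log2 units, adjusted p = 0.741 in edgeR). Tspan5 was at 56.6 and 56.8 CPM in frontal and at 51.2 and 50.7 CPM in parietal-interparietal libraries (0.15 ± 0.09 log2 units, adjusted p = 0.312 in edgeR). Both pairs of Tspan5 were tight and did not overlap, yet the difference did not pass the threshold.

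Tspan15, which directs ADAM10 to N-cadherin, was at 8.21 and 12.5 CPM in frontal and at 13.5 and 12.9 CPM in parietal-interparietal libraries (−0.34 ± 0.20 log2 units, adjusted p = 0.304 in edgeR). The low value was frontal library 1, and without frontal library 2 the gene was called lower at −0.69. Tspan17 was at 4.14 and 3.55 CPM in frontal and at 4.79 and 3.94 CPM in parietal-interparietal libraries. Tspan33, known from red cell precursors and activated B cells, was at 7.96 and 7.35 CPM in frontal and at 6.79 and 7.85 CPM in parietal-interparietal libraries. Tspan10 was at 0.278 and 0.227 CPM in frontal and at 0.737 and 0.221 CPM in parietal-interparietal libraries, 6 to 18 counts each. Adam10 itself was at 69.9 and 67.8 CPM in frontal and at 79.1 and 67.1 CPM in parietal-interparietal libraries (−0.09 ± 0.10 log2 units, adjusted p = 0.642 in edgeR).

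The members known from vessels, nerve, platelets, migrasomes, epithelia and the retina were not called. The vascular member Tspan18, which sustains calcium entry through ORAI1 in endothelium, was at 47.6 and 48.9 CPM in frontal and at 58.4 and 56.7 CPM in parietal-interparietal libraries (−0.25 ± 0.09 log2 units, adjusted p = 0.0986 in edgeR). Its groups did not overlap and it was called lower without either frontal library. Of 10 endothelial markers, 1 was lower (Cdh5) and 1 higher (Cldn5), with summed levels of 548 and 501 CPM in frontal and 612 and 603 CPM in parietal-interparietal libraries and no marker at 0; their part in the Tspan18 values was not tested.

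Tspan7, a synaptic member linked to intellectual disability in humans, was at 42.3 and 56.7 CPM in frontal and at 47.7 and 46.5 CPM in parietal-interparietal libraries (0.07 ± 0.13 log2 units, adjusted p = 0.781 in edgeR). Frontal library 1 was the lowest and frontal library 2 the highest, so the sign turned to −0.16 without frontal library 2, while without frontal library 1 it was called at 0.27. Tspan2, a member of oligodendrocytes, was at 8.59 and 9.66 CPM in frontal and at 10.4 and 11.3 CPM in parietal-interparietal libraries (−0.25 ± 0.16 log2 units, adjusted p = 0.361 in edgeR).

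Tspan9, which is abundant in platelets, was at 97.1 and 85.6 CPM in frontal and at 106 and 100.01 CPM in parietal-interparietal libraries (−0.18 ± 0.09 log2 units, adjusted p = 0.255 in edgeR). It was called lower without frontal library 1. Tspan4, which drives the growth of migrasomes on the trailing fibres of moving cells, was at 9.60 and 9.97 CPM in frontal and at 9.17 and 7.001 CPM in parietal-interparietal libraries (0.28 ± 0.19 log2 units). The epithelial member Tspan1 had the highest log2 fold change of the family, 1.00 ± 0.58, but rested on 10 to 48 counts per library and was not called (edgeR adjusted p = 0.307). It was at 1.495 and 1.36 CPM in frontal and at 1.06 and 0.368 CPM in parietal-interparietal libraries, so most of its spread lay between the 2 parietal-interparietal libraries.

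The photoreceptor pair Rom1 and Prph2, which shape the rims of outer segment discs, was low. Rom1 was at 4.17 and 3.83 CPM in frontal and at 2.29 and 3.17 CPM in parietal-interparietal libraries (0.55 ± 0.29 log2 units, adjusted p = 0.263 in edgeR), and Prph2 had between 0 and 5 counts per library. Of the 7 retina and lens markers, Rpe65, Cryaa and Pde6b were each at 0 in 2 or more libraries, and Crx, a transcription factor of photoreceptors, had 24 and 8 counts in frontal and 0 in both parietal-interparietal libraries. The list's summed level of 18.6 and 17.0 CPM in frontal and 7.04 and 5.38 CPM in parietal-interparietal libraries came mostly from Rlbp1. Its part in the Rom1 values was not tested.

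Genes whose proteins bind tetraspanins or are handled by them were read out of the same fit. Of 35 listed partners, 33 were tested, 1 was higher, 4 were lower and 28 were not called, against 12.7% of all tested genes called. The median log2 fold change of the partners was −0.10. The higher gene was Igsf8, which encodes EWI-2, an immunoglobulin-superfamily protein bound directly by CD9 and CD81. Igsf8 was at 84.7 and 84.9 CPM in frontal and at 49.8 and 49.1 CPM in parietal-interparietal libraries, 1.71-fold higher (log2 fold change 0.78 ± 0.09, edgeR adjusted p = 0.000476). Both pairs were tight, and the gene was called in each of the 10 alternatives. Of the 12 cortical neuron and progenitor markers given above, 9 were also higher, 1 was lower (Stmn2) and 2 were not called (Tubb3 and Dcx). Their part in the value of Igsf8 was not tested. Its relative Ptgfrn, which encodes the other main CD9 and CD81 partner, was at 104 and 113 CPM in frontal and at 123 and 127 CPM in parietal-interparietal libraries (−0.20 ± 0.08 log2 units, adjusted p = 0.15 in edgeR).

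The lower partners were integrins, a Frizzled receptor and an antiviral membrane protein. Itga7, the laminin-binding integrin of skeletal muscle, was at 13.8 and 10.9 CPM in frontal and at 21.4 and 23.5 CPM in parietal-interparietal libraries (−0.86 ± 0.15 log2 units, adjusted p = 0.00472 in edgeR). It was called in each of the 10 alternatives, and it moved with the muscle markers given above, whose part in its value was not tested. Itgb1, the common beta chain of these integrins, was at 482 and 589 CPM in frontal and at 681 and 677 CPM in parietal-interparietal libraries (−0.34 ± 0.09 log2 units, adjusted p = 0.0359 in edgeR). Fzd4, the receptor that TSPAN12 serves, was at 38.3 and 41.3 CPM in frontal and at 56.2 and 55.5 CPM in parietal-interparietal libraries (−0.49 ± 0.09 log2 units, adjusted p = 0.00869 in edgeR). Ifitm3 was at 82.1 and 99.9 CPM in frontal and at 122 and 123 CPM in parietal-interparietal libraries (−0.43 ± 0.10 log2 units, adjusted p = 0.0212 in edgeR). The calls of Itgb1, Fzd4 and Ifitm3 were lost when 1 parietal-interparietal library was left out, whichever it was, and when that pair was summed. Of the vesicle-related partners, Sdcbp, which encodes the exosome adaptor syntenin, was at 56.6 and 66.6 CPM in frontal and at 74.8 and 76.1 CPM in parietal-interparietal libraries (−0.29 ± 0.10 log2 units, adjusted p = 0.087 in edgeR).

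The members left, Tspan6, Tspan11 and Tspan13, were not called. Tspan6, which binds syntenin and acts on endosomal sorting, was at 47.9 and 69.5 CPM in frontal and at 68.3 and 71.5 CPM in parietal-interparietal libraries (−0.25 ± 0.15 log2 units, adjusted p = 0.315 in edgeR). Frontal library 1 alone was low, and without frontal library 2 the gene was called at −0.55. Tspan13 was at 47.9 and 60.9 CPM in frontal and at 44.4 and 44.0 CPM in parietal-interparietal libraries (0.30 ± 0.12 log2 units, adjusted p = 0.135 in edgeR). Its groups did not overlap, and it was called higher without frontal library 1. Tspan11, a close relative of Cd151, was at 30.7 and 23.5 CPM in frontal and at 23.7 and 23.8 CPM in parietal-interparietal libraries (0.19 ± 0.14 log2 units, adjusted p = 0.434 in edgeR). Like Cd151 it was high in frontal library 1 and close to the other group in frontal library 2.

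**Figure D4:**
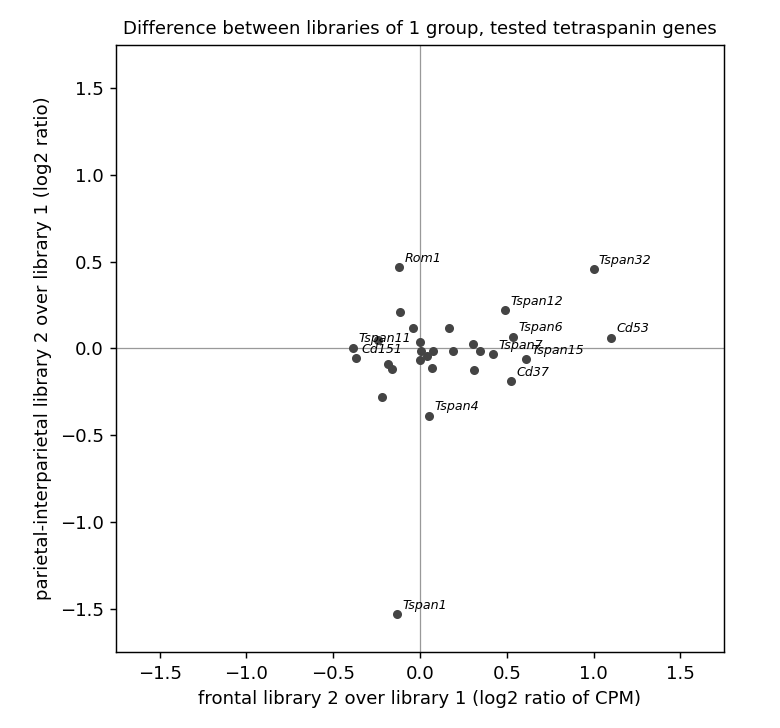
For each of the 29 tested tetraspanin genes, the log2 ratio of CPM in library 2 over library 1, for the frontal pair (horizontal) and the parietal-interparietal pair (vertical); named genes differ by more than 0.35 within the frontal pair or 0.3 within the other. The frontal difference is the wider one for 18 of the 29 genes; Tspan1, Rom1 and Tspan4 are among those with the wider parietal-interparietal difference.

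The frontal libraries differed more from each other than the parietal-interparietal libraries did. The median absolute log2 difference within the pair, over tested members, was 0.19 for the frontal and 0.07 for the parietal-interparietal libraries, against 0.24 and 0.14 over all tested genes. The frontal difference was the wider one for 18 of 29 members. Cd53, Tspan32, Tspan15, Tspan6, Cd37, Tspan12 and Tspan7 were higher in frontal library 2 by 0.42 to 1.10 log2 units, and Tspan11 and Cd151 were lower there, at −0.39 and −0.37 log2 units. The number of members called moved with these libraries. It was 11 without frontal library 1 and 11 without frontal library 2, where 24.2% and 32.6% of all tested genes were called, and 1 without each parietal-interparietal library in turn, where 3.89% and 3.84% were called. When both parietal-interparietal libraries were summed as 1 sample it was again 1, where 3.38% of genes were called. The 1 member called in these 3 last settings was Upk1b.

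**Figure D5:**
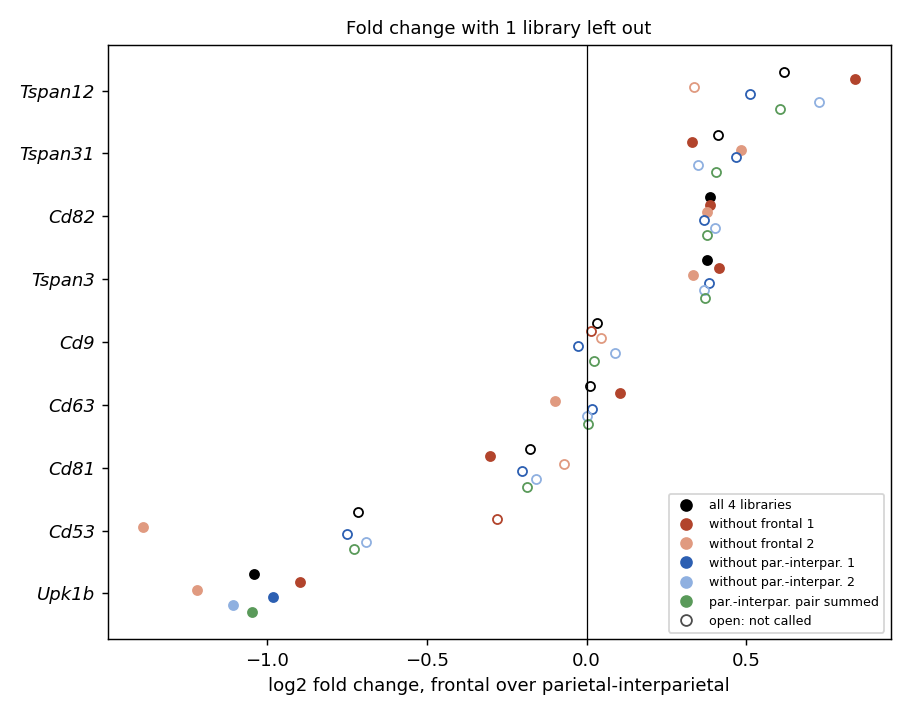
Log2 fold change, frontal over parietal-interparietal, of 9 members with all 4 libraries, with each library left out and with the parietal-interparietal pair summed; filled points are called and open points are not. Upk1b is filled throughout, Cd63 is called on opposite sides of 0 without frontal library 1 and without frontal library 2, and Cd53 moves between −0.28 and −1.39.

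Some members lie close together in the genome, as is known for families that grew by duplication. Tspan11 and Tspan9 are 7.42 kb apart on chromosome 6 with no protein-coding gene between them, and their log2 fold changes were 0.19 and −0.18. Tspan18 and Cd82 are 84.6 kb apart on chromosome 2, also with none between them, at −0.25 and 0.39. Tspan32 and Cd81 are 33.1 kb apart on chromosome 7, at −0.42 and −0.18, and Cd151 and Tspan4 are 3.77 kb apart on the same chromosome with 1 protein-coding gene between them, at 0.25 and 0.28. Of these 8 genes Cd82 was called, against 12.7% of all tested genes.

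Reads shared with other genes limit a few values. Cd37 shares 13 exon bases with Tead2 on the opposite strand, which had between 4607 and 7173 counts per library, and Tspan4 shares 292 exon bases with Chid1, also on the opposite strand. The pseudogene Cd63-ps had between 168 and 315 counts per library, so reads of Cd63 that match it may have been counted there. Cd9-ps had 0 counts in all 4 libraries.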

How the data were processed

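The deposited table held raw counts, 1 whole number per gene and library, as the authors made them; the submitters' processing notes list build GRCm38, featureCounts 2.0.1, HISAT2 2.1.0 and Trim Galore 0.6.7. Not given in the sources used here are step order, annotation release and strand setting. Symbols, positions and exon lengths came from GENCODE vM21 (GRCm38), which matched 55227 of 55487 gene IDs. After filterByExpr (minimum count 10) and TMM scaling, edgeR 4.0.16 (R 4.3.3) gave two-sided quasi-likelihood tests from a model of group alone, which leaves 2 residual degrees of freedom. The fit covered all genes, with Benjamini-Hochberg adjustment over them. A standard error is the size of the log2 fold change over the square root of F, and 95% intervals use the test's degrees of freedom. CPM per kilobase divides by the union of annotated exons. The procedure was tested on simulated data. DESeq2 1.42.0 and the other settings were run as alternatives. Values per library are printed for called members, the vesicle and TspanC8 members, the 5 highest levels per kilobase and the 4 highest and 4 lowest fold changes, and for called partners and Adam10, Igsf8, Ptgfrn and Itgb1. Other members and partners that are named lie outside this rule and were chosen after their values were seen. The members and lists were chosen with earlier results of these data known. Plots used Python 3.11.15 and matplotlib 3.10.9.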

Additional observations from a re-analysis of the deposited data

How the results depend on the processing

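Over all genes, 2657 calls became between 865 and 7279 with 1 library left out and 791 with both parietal-interparietal libraries summed. Without TMM, 984 genes were higher and 1606 lower, against 1309 and 1348 with it. Of the tetraspanins, 3 calls became between 1 and 11 with 1 library left out, 1 with that pair summed, 5 with no filter and 5 with the replicate block, where Tspan12 and Tspan31 joined Tspan3, Cd82 and Upk1b. Of the partners, 5 calls became between 2 and 12 with 1 library left out and 2 with the pair summed. Libraries with the same number did not deviate together (r = 0.018 over 20947 genes). With 1 such difference per group, this cannot show whether they share an embryo or a batch, which the labels do not state. Over the 29 tested members, 254 values kept their direction and side of the threshold. With direction kept, 8 lost the call and 19 gained it, and 9 changed sign, whether called or not. Over the 7 named partners these were 58, 9, 2 and 1. Cd63 without frontal library 2 changed sign and was also called. With no scaling beyond the total count Cd63 was at −0.040 and Cd9 at −0.019. With 1 library left out the log2 fold change ran from −0.10 to 0.10 for Cd63, −0.026 to 0.090 for Cd9, −0.16 to 0.27 for Tspan7, −0.015 to 0.36 for Tspan11, −0.038 to 0.17 for Tspan33, −0.22 to 0.31 for Cd37 and −0.20 to 0.035 for Adam10. A fit with a library left out takes its spread from the pair left whole, and assumes that the lone library varies alike. With counts halved, 3 members were called, where 15.2% of all tested genes were called. In each setting the cause of a changed call was not tested. Members under about 2 CPM rest on few counts, which limits what could be detected.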
